A study of Saccharomyces cerevisiae with 12 samples.

Results

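The genes described here are those whose transcriptional response to Congo red (CR) differed between a *sus1*Δ mutant of *Saccharomyces cerevisiae* and its WT parent, when the untreated and the treated part of each culture were compared with each other. For every gene the response of a culture was the log2 signal of its CR-treated part minus that of its untreated part, and the interaction was the mean response of 3 *sus1*Δ cultures minus the mean response of 3 WT cultures. A negative interaction therefore means a smaller rise or a larger fall in *sus1*Δ cells, and a positive one a smaller fall or a larger rise. Of 5449 genes tested, 45 had an interaction past the test, which was an adjusted p under 0.05 in limma with the culture as a block. All 12 arrays of the series entered the comparison.

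The 4 groups of 3 arrays each were *sus1*Δ cells with CR, *sus1*Δ cells without it, WT cells with CR and WT cells without it. The WT strain was BY4741, a haploid laboratory strain of mating type a that carries deletions at *HIS3*, *LEU2*, *MET17* (also called *MET15*) and *URA3*, and in the *sus1*Δ strain made from it the *KanMX4* marker replaces *SUS1*. Both strains share these deletions, and the mutant was a single strain. CR was added at 30 μg/mL for 3 h by the sample titles, whereas the deposited design text gives 2 h. Transcripts were measured on GeneChip Yeast Genome 2.0 arrays, and every level given below is a log2 signal.

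CR is a dye used to stress the yeast cell wall. Yeast answers damage to the wall through the cell wall integrity (CWI) pathway, in which sensors of the plasma membrane act through the GTPase Rho1, protein kinase C and a MAP kinase cascade on the MAP kinase Slt2. Slt2 activates the transcription factor Rlm1, which raises genes for wall proteins, wall-building enzymes and parts of the pathway itself. Sus1 is a small protein shared by the deubiquitinating module of the SAGA coactivator and by TREX-2, a complex at the nuclear pore that links transcription to mRNA export, so the comparison asks which parts of the response change in size without it.

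The labels were checked on marker genes. *SUS1* read 2.55 to 3.34 on the *sus1*Δ arrays and 7.90 to 8.66 on the WT arrays. *MFA1*, *MFA2*, *STE2* and *BAR1*, which mark cells of mating type a, read 10.13 to 13.10 on all arrays, and *MF(ALPHA)1*, of the other mating type, 3.03 to 4.61. *STE3* and *SAG1*, also genes of the other mating type, read 5.17 to 6.98 and 8.13 to 8.57, so *SAG1* was not near the floor. *LEU2*, *MET17* and *URA3* read 2.57 to 4.44, whereas *HIS3*, of which BY4741 retains a part, read 9.48 to 10.17. The arrays had medians of 9.08 to 9.16, but the strains differed at the dim end, where the 5th percentile of a *sus1*Δ array was 5.36 to 5.49 and that of a WT array 4.53 to 4.80. The responses of WT culture 3 had the widest spread over genes (SD 0.449, against 0.341 and 0.380 in the other WT cultures and 0.205 to 0.253 in the *sus1*Δ cultures).

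Each of the 45 genes past the test, except the meiotic gene *RIM4*, had the larger CR response in WT cells. The interaction was negative in 33 genes (0.606% of those tested) and positive in 12 (0.22%), with sizes between 0.50 and 2.08 on the log2 scale and adjusted p-values of 0.0205 to 0.0493. At an unadjusted p under 0.05, 525 genes were negative and 361 positive. In 32 of the 33 negative genes WT cells had the larger response and it was a rise, with a median of 0.51 in *sus1*Δ and 1.32 in WT cells. In all 12 positive genes WT cells had the larger response and it was a fall, with a median of -0.12 in *sus1*Δ and -0.86 in WT cells. No gene past the test rose more in *sus1*Δ than in WT cells. Since a signal is an average over a culture, fewer responding cells and a weaker response per cell cannot be told apart.

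The number of genes past the test depended on how the cultures were treated, and when the 4 group means replaced the culture block it was 4 negative and 0 positive, where limma gave 285 and 185 genes at an unadjusted p under 0.05. With the arrays brought to the same distribution by quantile normalization, which takes away the difference at the dim end, 15 negative and 9 positive genes passed (13 and 9 of them among the 45). With *sus1*Δ culture 1, 2 or 3 left out no gene passed in limma, where 399, 337 and 406 genes were negative and 242, 232 and 263 positive at an unadjusted p under 0.05, and by the methods' t-test with adjustment no gene passed either. Without WT culture 1, 2 or 3 the counts were 19, 1 and 58 negative and 9, 0 and 17 positive genes. *EPO1* and *DBP1*, the last inside the threshold, had interactions of -0.50 and -0.67 (adjusted p = 0.0493 each), and *MDJ2* (0.63), *EFG1* (0.92), *ATG22* (-0.53) and *ARI1* (-0.50) lay just outside (adjusted p = 0.0506 each).

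The responses of single cultures did not overlap between the strains in any of the 45 genes. These genes were picked by a test on the same responses, which favours such a gap, so it is no separate support. Over all genes tested, every *sus1*Δ response lay below every WT response in 13% and above in 10.2%. The CR response itself passed the test in *sus1*Δ cells upwards in 2.53% and downwards in 1.05% of all genes, and in WT cells upwards in 14.9% and downwards in 15%. Of the 32 genes with a larger rise in WT cells, 22 also rose in *sus1*Δ cells. Of the 12 genes with a larger fall in WT cells, 3 also fell in *sus1*Δ cells. Across the 5449 genes, which share arrays and are not independent, the slope of the mean *sus1*Δ on the mean WT response was 0.473 and their correlation 0.816, given as a description.

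**Figure D1:**
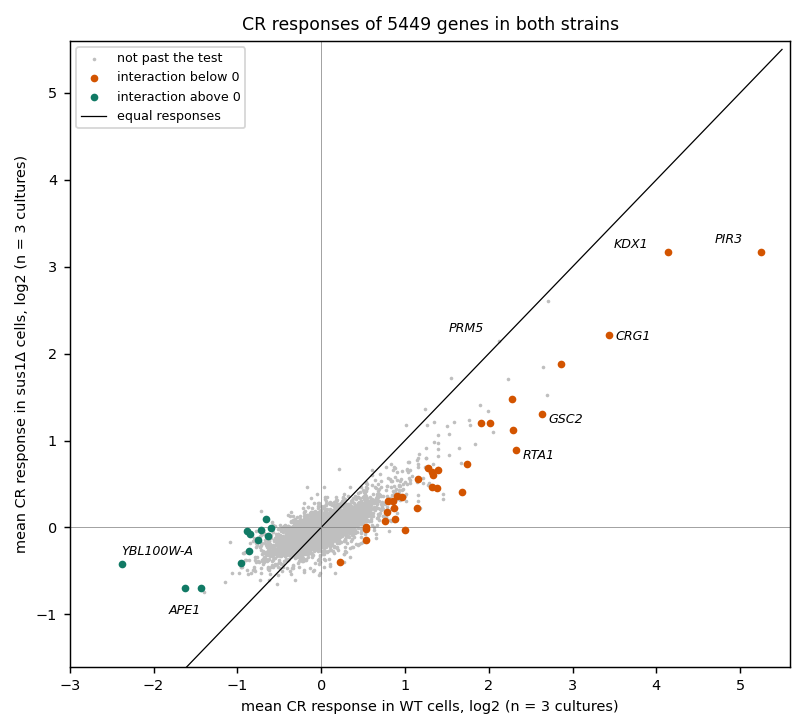
Mean CR response of 5449 genes, with WT cells on the horizontal and *sus1*Δ cells on the vertical axis (log2, n = 3 cultures each), and a line of equal responses. The 33 genes with a negative interaction lie below the line and the 12 with a positive one above it, while *PRM5* lies on it.

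**Figure D2:**
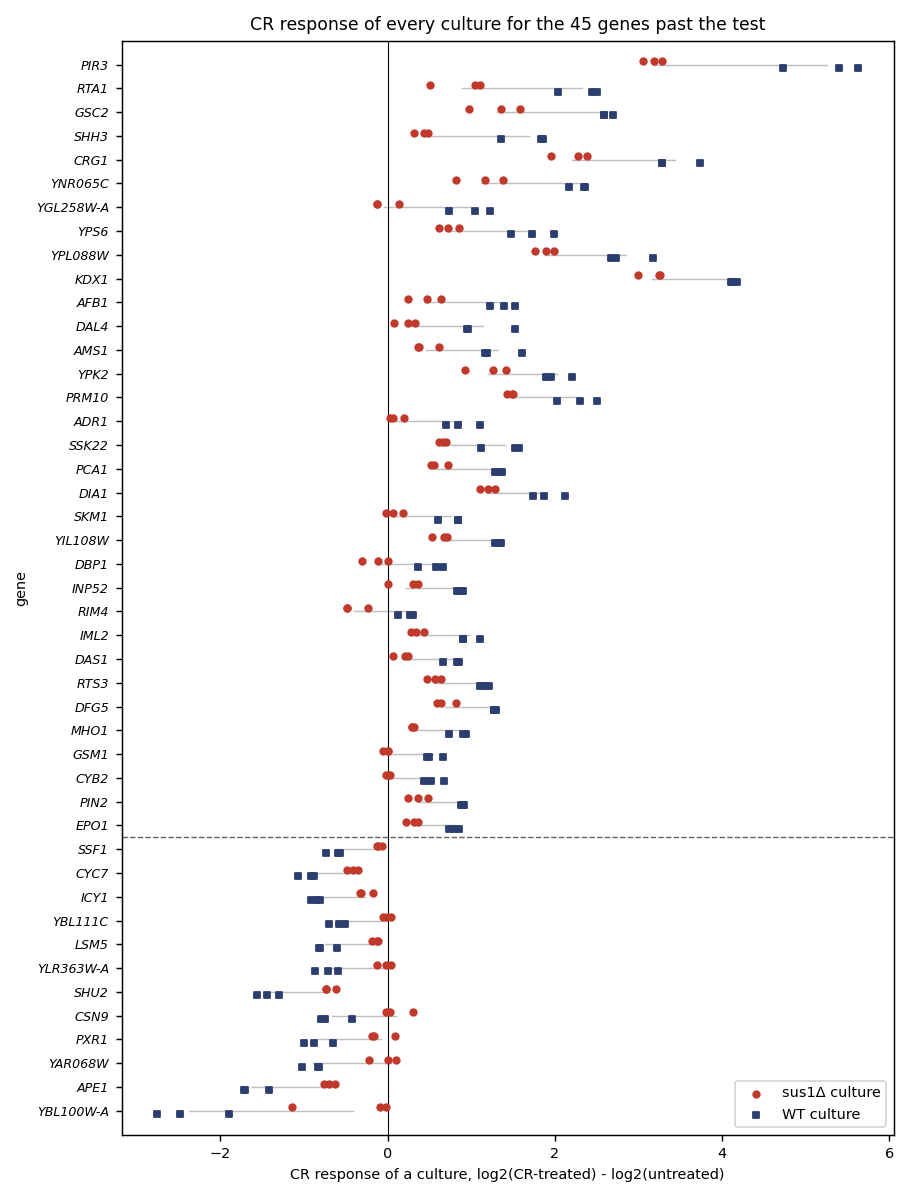
CR response of every culture (log2 of treated minus untreated) for the 45 genes past the test, ordered by interaction, with *sus1*Δ cultures as circles above WT cultures as squares and a gray line between the means. The dashed line parts the 33 negative from the 12 positive genes, and in no row do the circles and squares overlap. The genes were picked by a test on these same responses.

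Cell wall genes held the largest negative interaction. *PIR3* (YKL163W, chromosome XI), which encodes an O-glycosylated structural protein of the wall, read 10.24, 10.12 and 10.28 in CR-treated and 6.96, 7.07 and 7.10 in untreated *sus1*Δ cells, against 11.39, 11.37 and 11.49 in CR-treated and 6.0, 6.64 and 5.86 in untreated WT cells. The mutant thus started above WT cells and ended below them, with no overlap in either condition. The CR-treated over untreated ratio was 9 in *sus1*Δ and 38.1 in WT cells, an interaction of -2.08 (standard error 0.21, adjusted p = 0.0205 from limma), and 60.4% of the WT response on the log2 scale was kept. Quantile normalization gave -1.58 for this gene, which was past the test in every other fit except the methods' t-test with adjustment and those without a *sus1*Δ culture.

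*GSC2* (YGR032W, chromosome VII), which encodes the alternative catalytic subunit of the enzyme that makes β-1,3-glucan had the next largest value among wall genes. It read 11.34, 10.99 and 11.04 in CR-treated and 9.76, 10.01 and 9.67 in untreated *sus1*Δ cells, against 11.65, 12.03 and 12.17 in CR-treated and 9.06, 9.43 and 9.46 in untreated WT cells. Its 3 *sus1*Δ responses, 1.58, 0.97 and 1.36, all stayed under those of WT cells, 2.59, 2.59 and 2.70, and the interaction was -1.33 (standard error 0.15, adjusted p = 0.0217 from limma). *YPS6* (YIR039C), a member of the yapsin family of GPI-anchored aspartyl proteases, read 8.33, 8.13 and 8.15 in CR-treated and 7.61, 7.52 and 7.29 in untreated *sus1*Δ cells, against 8.83, 8.92 and 8.86 in CR-treated and 6.83, 7.44 and 7.12 in untreated WT cells. The strains were apart with CR and overlapped without it, and the interaction was -1.01 (standard error 0.14, adjusted p = 0.0282 from limma). *DFG5* (YMR238W), a GPI-anchored putative mannosidase needed for wall assembly, had responses of 0.82, 0.64 and 0.59 in *sus1*Δ and 1.27, 1.27 and 1.30 in WT cultures. Its interaction of -0.59 (standard error 0.09, adjusted p = 0.0394 from limma) was among the smaller ones.

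Most other genes of wall construction did not pass. In the list of Pir and GPI cell wall proteins 2 of 30 measured genes had a negative interaction past the test (*PIR3*, *YPS6*) and none a positive one, with a median of -0.09. Over all genes tested 0.606% had a negative interaction past the test. Among the 30, 12 had *sus1*Δ responses wholly below those of WT cells, against 13% of all genes. In the list of glucan synthesis and remodelling 2 of 32 passed (*GSC2*, *DFG5*), against the same 0.606%, 25 of 32 values were negative and the median was -0.15. Over all genes tested the median was 0.00 and 50.9% of values were negative. None of 13 chitin synthesis genes passed in limma. *CHS1*, which encodes a chitin synthase used in repair, had -0.46 (adjusted p = 0.0524 from limma), and *CHS6*, which encodes an exporter of chitin synthase III to the cell surface, -0.53 (adjusted p = 0.0799 from limma). Both rose past the test in each strain. Among the 13, 7 rose in *sus1*Δ and 8 in WT cells, against 2.53% and 14.9% of all genes. Of 26 genes of protein mannosylation none passed, and *KTR2*, a mannosyltransferase gene, had the lowest value, -0.65 (adjusted p = 0.0575 from limma).

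**Figure D3:**
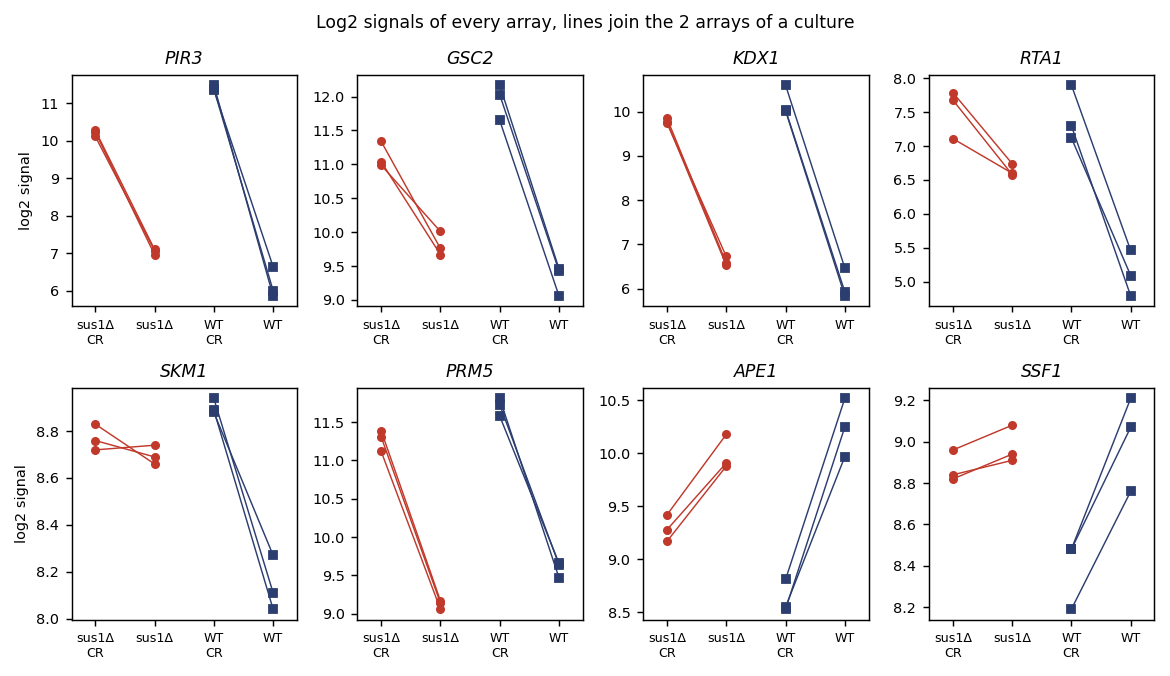
Log2 signals of every array for 8 genes, with a line joining the CR-treated and the untreated part of each culture and a vertical axis of its own for each gene, 3 cultures per strain. The lines of *PIR3*, *GSC2* and *KDX1* are steeper in WT cells, *RTA1* and *SKM1* differ mainly without CR, *PRM5* has lines of like slope, and *APE1* and *SSF1* fall less in *sus1*Δ cells.

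Among kinases, the largest interaction was that of *KDX1* (YKL161C, chromosome XI), which encodes a kinase-like paralog of Slt2. It read 9.85, 9.74 and 9.77 in CR-treated and 6.58, 6.73 and 6.53 in untreated *sus1*Δ cells, against 10.04, 10.02 and 10.60 in CR-treated and 5.93, 5.84 and 6.47 in untreated WT cells. The gene remained strongly induced in both strains, 8.98-fold in *sus1*Δ and 17.6-fold in WT cells. Its *sus1*Δ minus WT difference was 0.54 without CR (adjusted p = 0.0506 from limma) and -0.44 with CR (adjusted p = 0.0868 from limma). The strains thus lay slightly farther apart without CR, and neither difference passed the test. Its interaction of -0.97 (standard error 0.10, adjusted p = 0.0205 from limma) was -0.39 after quantile normalization (adjusted p = 0.116 from limma), and without the culture block it kept its size but not the call (adjusted p = 0.241 from limma). *PIR3* and *KDX1* lie 4007 bp apart on chromosome XI in the R64 annotation with a single gene, *YKL162C*, between them, whose interaction was 0.07 (adjusted p = 0.91 from limma). *PIR1*, on the other side of *PIR3*, had an interaction of -0.28 (adjusted p = 0.202 from limma).

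*YPK2* (YMR104C), which encodes a protein kinase of the plasma membrane stress response, read 8.74, 8.58 and 8.63 in CR-treated and 7.33, 7.64 and 7.38 in untreated *sus1*Δ cells, against 8.75, 8.99 and 9.17 in CR-treated and 6.54, 7.09 and 7.22 in untreated WT cells. The CR-treated groups nearly touched, and the interaction was -0.82 (standard error 0.14, adjusted p = 0.0479 from limma). *SSK22* (YCR073C), which encodes a MAP kinase kinase kinase of the osmotic stress pathway, had responses of 0.70, 0.66 and 0.61 in *sus1*Δ and 1.52, 1.57 and 1.12 in WT cultures (interaction -0.75, adjusted p = 0.0479 from limma). For *SKM1* (YOL113W), which encodes a PAK family kinase, the responses were 0.07, -0.02 and 0.18 in *sus1*Δ and 0.84, 0.60 and 0.84 in WT cultures (interaction -0.69, adjusted p = 0.0394 from limma). Further regulators were *RTS3*, a component of protein phosphatase 2A (-0.60), and *INP52*, a phosphoinositide phosphatase (-0.65).

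Neither *SLT2* nor *RLM1* passed the test. *SLT2* read 11.34, 11.22 and 11.31 in CR-treated and 9.80, 9.99 and 9.86 in untreated *sus1*Δ cells, against 11.73, 11.65 and 11.84 in CR-treated and 9.83, 9.83 and 9.86 in untreated WT cells. The strains lay together without CR and apart with it, but the interaction of -0.49 (95% interval -0.73 to -0.24) did not pass after adjustment (adjusted p = 0.0752 from limma). *RLM1* read 9.32, 9.22 and 9.31 in CR-treated and 8.33, 8.43 and 8.33 in untreated *sus1*Δ cells, against 9.19, 9.34 and 9.55 in CR-treated and 7.93, 8.13 and 8.28 in untreated WT cells. Its strains overlapped with CR and not without it, and the interaction was -0.33 (95% interval -0.54 to -0.11, adjusted p = 0.137 from limma). *BAG7*, whose product stimulates GTP hydrolysis by Rho1, had the lowest value of the list, -1.18 (95% interval -1.75 to -0.61, adjusted p = 0.0691 from limma). Of 35 measured genes of CWI signalling, 2 passed with a negative sign (*KDX1*, *YPK2*), against 0.606% of all genes. None passed with a positive sign, and the median interaction was -0.10. In their own CR responses 11 of the 35 rose in *sus1*Δ and 16 in WT cells, against 2.53% and 14.9% of all genes.

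Several genes of other or unknown function stood beside the wall genes at the top of the order. *CRG1* (YHR209W), a methyltransferase gene of chromosome VIII, read 9.97, 9.63 and 9.98 in CR-treated and 7.69, 7.67 and 7.59 in untreated *sus1*Δ cells, against 10.59, 10.80 and 11.05 in CR-treated and 7.31, 7.51 and 7.31 in untreated WT cells. All its treated *sus1*Δ arrays lay below all treated WT arrays, and the interaction was -1.23 (standard error 0.16, adjusted p = 0.0251 from limma). *YPL088W* (chromosome XVI), a putative aryl alcohol dehydrogenase gene, read 10.14, 10.08 and 10.21 in CR-treated and 8.15, 8.32 and 8.32 in untreated *sus1*Δ cells, against 10.83, 11.04 and 11.32 in CR-treated and 8.16, 8.31 and 8.15 in untreated WT cells. Its untreated levels overlapped, while its treated levels did not, and the interaction was -0.98 (standard error 0.14, adjusted p = 0.0362 from limma).

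*YNR065C* (chromosome XIV), which encodes a protein related to the vacuolar sorting receptor Vps10, read 10.26, 9.84 and 10.02 in CR-treated and 8.88, 9.02 and 8.86 in untreated *sus1*Δ cells, against 11.11, 11.01 and 11.10 in CR-treated and 8.94, 8.66 and 8.74 in untreated WT cells. Here too the untreated arrays overlapped and the treated ones did not (interaction -1.17, standard error 0.14, adjusted p = 0.0251 from limma). *PRM10* (YJL108C), which encodes a pheromone-regulated membrane protein, rose by 1.48 in *sus1*Δ and by 2.28 in WT cells (interaction -0.80, adjusted p = 0.0394 from limma). It was the only 1 of 38 genes of the mating list to pass, against 0.606% of all genes with a negative sign. *AFB1* (YLR040C), a pheromone blocker known from cells of the other mating type, was lower in *sus1*Δ than in WT cells after CR by 1.41 on the log2 scale and had an interaction of -0.93 (standard error 0.13, adjusted p = 0.0262 from limma).

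Genes of metabolism and the vacuole formed another group. *AMS1* (YGL156W), the vacuolar α-mannosidase, had responses of 0.62, 0.38 and 0.37 in *sus1*Δ and 1.17, 1.19 and 1.61 in WT cultures, and an interaction of -0.87 (standard error 0.14, adjusted p = 0.0394 from limma). *ADR1*, an activator of genes repressed by glucose, had -0.78, and its response passed the test in WT (0.88) but not in *sus1*Δ cells (0.10, adjusted p = 0.606 from limma). *DAL4*, the allantoin permease gene, had -0.92, *PCA1*, a P-type ATPase of metal transport, -0.75, *CYB2*, the L-lactate dehydrogenase of mitochondria, -0.54, and *SHH3*, a homolog of the succinate dehydrogenase subunit Sdh3, -1.27. *SHH3* read 4.61, 4.47 and 4.52 in CR-treated and 4.28, 3.99 and 4.09 in untreated *sus1*Δ cells, against 5.25, 5.14 and 4.98 in CR-treated and 3.89, 3.30 and 3.12 in untreated WT cells. Outside CR-treated WT cells these signals lie below the 5th percentile of their arrays, and after quantile normalization the interaction was -1.53 (adjusted p = 0.044 from limma).

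The other negative genes had interactions of -0.50 to -0.72. They were *DIA1*, involved in invasive growth (-0.72), the putative metalloprotease gene *YIL108W* (-0.68), the RNA helicase gene *DBP1* (-0.67), *RIM4*, which encodes a meiotic RNA-binding protein (-0.63), *IML2* (-0.62), the F-box gene *DAS1* (-0.61), *MHO1* (-0.56), the putative transcription factor gene *GSM1* (-0.55), *PIN2* (-0.53) and *EPO1*, which ties the endoplasmic reticulum to the growing tip (-0.50). Of these genes *IML2*, *DAS1*, *MHO1*, *PIN2*, *EPO1* and *YIL108W* were lower in *sus1*Δ than in WT cells after CR.

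The negative genes differed in where the strains lay apart. In 18 of the 32 genes with a larger WT rise the strains were farther apart with CR, and in 14 without it. Untreated *sus1*Δ cells were higher than untreated WT cells past the test in 11 of the 32 and lower in none, against 14.3% higher and 7.08% lower over all genes. With CR, *sus1*Δ cells were higher in 2 and lower in 18 of the 32, against 16.8% and 10.9% over all genes. These strain differences came from the fit without a culture block, since a culture holds 1 strain, and they share their arrays with the interaction.

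*RTA1* (YGR213C, chromosome VII), which encodes a membrane protein linked to sterol toxicity, was an example of a difference without CR. It read 7.79, 7.11 and 7.68 in CR-treated and 6.74, 6.60 and 6.58 in untreated *sus1*Δ cells, against 7.30, 7.12 and 7.90 in CR-treated and 4.79, 5.09 and 5.46 in untreated WT cells. The treated arrays overlapped while the untreated ones lay 1.53 apart (adjusted p = 0.00115 from limma), and the interaction of -1.44 (standard error 0.18, adjusted p = 0.0251 from limma) was -0.91 after quantile normalization (adjusted p = 0.0623 from limma). *SKM1* had its main difference without CR too, with 8.69, 8.74 and 8.66 in untreated *sus1*Δ and 8.04, 8.27 and 8.11 in untreated WT cells. The small gene *YGL258W-A*, whose function is not known, read 5.19, 5.36 and 4.77 in CR-treated and 5.04, 5.49 and 4.89 in untreated *sus1*Δ cells, against 4.63, 5.07 and 4.75 in CR-treated and 3.41, 4.02 and 4.02 in untreated WT cells. Its rise passed the test in WT cells alone (interaction -1.04, standard error 0.14, adjusted p = 0.0279 from limma), and the treated WT arrays overlapped with the untreated *sus1*Δ arrays. The untreated WT signals of *YGL258W-A* lay below the 5th percentile of their arrays, and its *sus1*Δ signals at or below that of theirs. The part of this dim end in its interaction was not tested.

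*CYB2* was the extreme of this kind. It read 6.94, 6.89 and 6.61 in CR-treated and 6.96, 6.87 and 6.60 in untreated *sus1*Δ cells, against 4.96, 5.64 and 4.30 in CR-treated and 4.29, 5.12 and 3.85 in untreated WT cells. Its response passed the test in WT cells alone (0.54, against 0.01 in *sus1*Δ cells), and the mutant stayed above WT cells in both conditions. Of the 33 negative genes, 14 (42.4%) had a mean signal below the 25th percentile of all probe sets, 8.11, where 24.1% of all genes tested lay. Beyond the quantile normalization given above, the part of the strain difference at the dim end in these interactions was not tested.

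*RIM4* was the exception in direction. It read 6.22, 6.43 and 5.93 in CR-treated and 6.46, 6.90 and 6.41 in untreated *sus1*Δ cells, against 5.55, 5.68 and 5.25 in CR-treated and 5.28, 5.55 and 4.96 in untreated WT cells. Every *sus1*Δ culture went down (-0.23, -0.48 and -0.48) and every WT culture up (0.27, 0.13 and 0.30), each past its own test. *DBP1* was the other gene past the interaction test with this pattern, with *sus1*Δ responses of -0.11, -0.30 and a value just below 0 and WT responses of 0.58, 0.66 and 0.36. Over all genes, 69 (1.27%) went down in all *sus1*Δ and up in all WT cultures, and 36 (0.661%) the opposite way.

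The 12 genes with a positive interaction all fell more in WT cells, and in all of them the strains lay farther apart with CR. After CR, *sus1*Δ cells were higher than WT cells past the test in 11 of the 12, the exception being *CYC7*. *APE1* (YKL103C, chromosome XI), the vacuolar aminopeptidase I that the cytoplasm-to-vacuole pathway delivers, read 9.28, 9.42 and 9.17 in CR-treated and 9.91, 10.18 and 9.88 in untreated *sus1*Δ cells, against 8.53, 8.81 and 8.55 in CR-treated and 10.25, 10.52 and 9.97 in untreated WT cells. The untreated groups overlapped and the treated ones did not, and the interaction was 0.92 (standard error 0.11, adjusted p = 0.0227 from limma). *AMS1*, which is carried by the same pathway, had the opposite sign. *SHU2* (YDR078C), a gene of a complex that promotes error-free recombinational repair, read 8.11, 8.05 and 8.10 in CR-treated and 8.86, 8.79 and 8.72 in untreated *sus1*Δ cells, against 7.30, 7.07 and 6.83 in CR-treated and 8.60, 8.51 and 8.39 in untreated WT cells. It fell in both strains, by 0.70 in *sus1*Δ and by 1.43 in WT cells on the log2 scale (interaction 0.73, standard error 0.10, adjusted p = 0.0262 from limma). *CYC7*, an isoform of cytochrome c, fell in both strains too and had an interaction of 0.54 (adjusted p = 0.0479 from limma).

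Genes of RNA processing and ribosome assembly were a further part of the positive genes. *PXR1* (YGR280C), needed for the maturation of ribosomal and nucleolar RNAs, read 10.08, 10.36 and 10.38 in CR-treated and 10.26, 10.27 and 10.54 in untreated *sus1*Δ cells, against 9.76, 9.78 and 9.74 in CR-treated and 10.77, 10.43 and 10.62 in untreated WT cells. *SSF1* (YHR066W), an assembly factor of the large ribosomal subunit, read 8.84, 8.82 and 8.96 in CR-treated and 8.91, 8.94 and 9.08 in untreated *sus1*Δ cells, against 8.48, 8.19 and 8.48 in CR-treated and 9.21, 8.76 and 9.07 in untreated WT cells. *LSM5* (YER146W), a subunit of the Lsm complexes of mRNA decay and U6 RNA, read 10.93, 10.85 and 10.72 in CR-treated and 11.05, 10.96 and 10.91 in untreated *sus1*Δ cells, against 10.26, 10.04 and 10.17 in CR-treated and 11.08, 10.65 and 10.97 in untreated WT cells. In these 3 genes all treated WT arrays were below all other arrays. Their interactions were 0.76, 0.53 and 0.61 (adjusted p = 0.0394, 0.0425 and 0.0394 from limma), and none of them fell past the test in *sus1*Δ cells. *CSN9* (YDR179C), a subunit of the COP9 signalosome, read 6.53, 6.91 and 6.83 in CR-treated and 6.55, 6.61 and 6.8 in untreated *sus1*Δ cells, against 6.35, 6.42 and 6.29 in CR-treated and 7.10, 7.22 and 6.72 in untreated WT cells. Its treated WT arrays were the lowest, and the interaction was 0.76 (adjusted p = 0.0479 from limma). *ICY1* (YMR195W) read 10.73, 10.93 and 10.52 in CR-treated and 11.06, 11.10 and 10.85 in untreated *sus1*Δ cells, against 9.86, 9.75 and 9.69 in CR-treated and 10.78, 10.59 and 10.50 in untreated WT cells. *YLR363W-A* read 9.01, 8.93 and 9.25 in CR-treated and 9.12, 8.89 and 9.27 in untreated *sus1*Δ cells, against 8.41, 8.39 and 8.66 in CR-treated and 9.28, 8.98 and 9.37 in untreated WT cells. In both genes the treated WT arrays lay below all others, and the interactions were 0.58 and 0.69 (adjusted p = 0.0394 and 0.0362 from limma).

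Of the remaining 3 positive genes, *YBL100W-A* and *YBL111C* belong to repeated families and have probe sets of the shared type, which may read several copies, so their values are uncertain. The probe set of *YAR068W* is of the unique type. *YBL100W-A*, which encodes the Gag protein of a Ty2 retrotransposon, read 10.85, 11.18 and 9.81 in CR-treated and 10.94, 11.20 and 10.95 in untreated *sus1*Δ cells, against 7.15, 5.97 and 7.02 in CR-treated and 9.04, 8.44 and 9.78 in untreated WT cells. The strains did not overlap in either condition, and only culture 3 of the mutant went down clearly (-1.14, against -0.09 and -0.02), so that the interaction of 1.96 had the largest error of the 45 (standard error 0.32, adjusted p = 0.0394 from limma). *YBL111C*, a helicase-like gene of the Y′ element at chromosome ends, read 12.14 to 12.50 on all *sus1*Δ arrays, against 9.63 to 10.23 in CR-treated and 10.33 to 10.74 in untreated WT cells (interaction 0.59, adjusted p = 0.0394 from limma). *YAR068W* read 8.73, 8.58 and 8.96 in CR-treated and 8.64, 8.79 and 8.96 in untreated *sus1*Δ cells, against 7.59, 7.45 and 7.83 in CR-treated and 8.61, 8.28 and 8.66 in untreated WT cells. Only its treated WT arrays stood apart, with an interaction of 0.85 (adjusted p = 0.0251 from limma).

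Chromosome ends held a share of these genes. Of the 33 negative genes 6 (18.2%) lay within 30 kb of a chromosome end (*YPS6*, *YNR065C*, *DAL4*, *PCA1*, *DIA1* and *YGL258W-A*), and of the 12 positive genes 3 (25%), *YBL100W-A*, *YBL111C* and *YAR068W*, against 5.54% of all genes tested. The right end was taken as the end of the last annotated gene of a chromosome, which put *YNR065C* 29.8 kb away. Its distance to the true end is larger. The median length was 1854 bp in the negative, 580.5 bp in the positive and 1236 bp in all genes. Apart from *PIR3* and *KDX1*, *PRM10* lay 10168 bp from *GSM1* on chromosome X and *SHH3* 11721 bp from *EPO1* on chromosome XIII, each with 4 genes between. These shares were not tested.

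The induced part of the response was smaller as a whole. Of 87 genes that rose at least 2-fold past the test in WT cells, 83 had a negative interaction, 21 of them past the test, and the median interaction was -0.60. The median share of the WT response kept in *sus1*Δ cells was 56.3% on the log2 scale, with quartiles of 46.6% and 69.5%, and 65 of the 87 also rose past the test in *sus1*Δ cells. Genes picked for a high response in all WT cultures tend to a negative value, so genes with a mean log2 response of at least 1 in 2 WT cultures were also read in the WT culture left out of that choice. The median response in the left-out WT culture 1, 2 or 3 was 1.35, 1.22 and 1.46 (89, 90 and 77 genes), whereas in the *sus1*Δ cultures the medians of the same genes were 0.61 to 0.91. The mean *sus1*Δ response was below that of the left-out WT culture in 82 of 89, 83 of 90 and 75 of 77 genes. For genes with a mean log2 fall of at least 1 in 2 WT cultures, the left-out medians were -0.71, -0.83 and -1.42 (21, 13 and 7 genes). The medians of these falling genes in the *sus1*Δ cultures were -0.62 to -0.26. Their mean *sus1*Δ fall was smaller than that of the left-out WT culture in 16 of 21, 12 of 13 and 6 of 7 genes.

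A few induced genes had interactions near 0. *PRM5*, which encodes a membrane protein regulated by pheromone and the CWI pathway, read 11.31, 11.12 and 11.39 in CR-treated and 9.14, 9.06 and 9.17 in untreated *sus1*Δ cells, against 11.73, 11.58 and 11.81 in CR-treated and 9.64, 9.66 and 9.47 in untreated WT cells. It was lower in the mutant in both conditions by nearly the same amount, and its interaction was 0.03 (95% interval -0.25 to 0.32, adjusted p = 0.933 from limma). *CWP1*, a mannoprotein of the wall, read 12.72, 12.73 and 12.73 in CR-treated and 10.95, 11.20 and 10.86 in untreated *sus1*Δ cells, against 13.15, 13.13 and 13.13 in CR-treated and 11.74, 11.83 and 11.18 in untreated WT cells. It was lower in the mutant by 0.58 without CR (adjusted p = 0.0171 from limma), and its difference of -0.41 with CR did not pass (adjusted p = 0.0551 from limma). The interaction was 0.17 (95% interval -0.23 to 0.57, adjusted p = 0.701 from limma). *SRL3*, which acts in G1/S transcription and was chosen for mention after its values were seen, rose by 2.60 in *sus1*Δ and by 2.71 in WT cells (interaction -0.11, 95% interval -0.45 to 0.23). These intervals bound the difference and do not show that the responses were equal. The 4 of 87 genes without a negative value were *PRM5*, *CWP1*, the wall protein gene *SED1* (0.17) and *YNL058C* (0.11), the last 2 named after their values were seen. *ACT1*, the actin gene, read 13.48 to 13.68 on all arrays and had an interaction of -0.07 (adjusted p = 0.756 from limma).

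Signs opposite to the WT response were general among genes that responded in WT cells. Genes picked for their WT response tend to the opposite sign by that choice, and no culture was left out for the next counts. Of 811 genes that fell under 2-fold past the test in WT cells 794 had a positive interaction (median 0.23), and of 726 that rose under 2-fold 714 had a negative one (median -0.26). The counts of the following lists are descriptions, to be read beside these shares, and nothing particular to a list was tested. All 98 measured genes of ribosome biogenesis had a positive interaction, with a median of 0.27, but only *SSF1* passed. In 57 of the 98 the *sus1*Δ responses lay wholly above those of WT cells, against 10.2% of all genes. The median response of the list in single cultures was -0.23, -0.14 and -0.26 in *sus1*Δ and -0.40, -0.40 and -0.60 in WT cells, so every *sus1*Δ culture fell less. Of its genes 5 fell past the test in *sus1*Δ and 90 in WT cells, against 1.05% and 15% of all genes. *EFG1*, an rRNA processing gene, had the highest interaction, 0.92 (95% interval 0.55 to 1.30, adjusted p = 0.0506 from limma), followed by *SDA1*, which acts in 60S maturation, with 0.57 (adjusted p = 0.0575 from limma). Of 21 subunit genes of RNA polymerases I and III, 19 were positive and none passed (median 0.20), and *RPC53* had 0.46 (adjusted p = 0.0592 from limma). The genes of cytosolic ribosomal proteins, whose products these factors assemble, had a median of 0.06 (104 of 127 positive, none past the test). Their median WT response was itself small, -0.07, and 8 of the 127 fell past the test in WT cells. Without WT culture 3 the medians of these lists stayed positive at 0.18 for ribosome biogenesis and 0.13 for the polymerases.

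Of 42 genes of the general stress response list 36 had a negative interaction, none past the test, with a median of -0.28. The median response of the list was 0.20, -0.03 and 0.11 in the *sus1*Δ cultures and 0.27, 0.26 and 0.64 in the WT cultures, so that WT culture 3 stood far above the others, and without it the median interaction was -0.13. By their own responses 0 of the 42 genes rose past the test in *sus1*Δ and 27 in WT cells by limma. Over all genes these shares were 2.53% and 14.9%. *SPI1*, a GPI-anchored wall protein gene of the stress response, had -0.73 (adjusted p = 0.0506 from limma) and *GLC3*, the glycogen branching enzyme gene, -0.65 (adjusted p = 0.0691 from limma). Of 28 autophagy genes 24 were negative and none passed (median -0.21). In 13 of the 28 the *sus1*Δ responses lay wholly below those of WT cells, against 13% of all genes. *ATG8*, whose protein is joined to the autophagosome membrane, had -0.78 (adjusted p = 0.0524 from limma). Of 11 vacuolar hydrolase genes 9 were negative, with *AMS1* and *APE1* past the test in opposite directions.

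**Figure D4:**
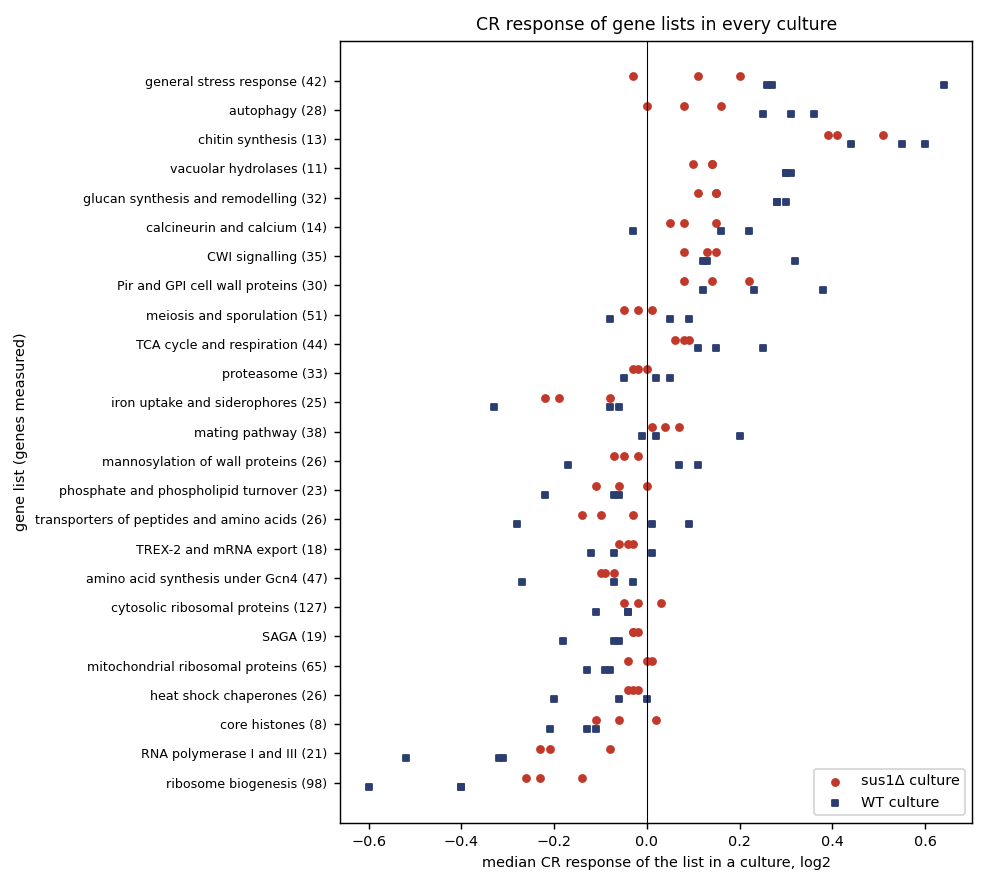
Median CR response of each of 25 gene lists in every culture (log2, horizontal axis), with *sus1*Δ cultures as circles above WT cultures as squares, the number of genes measured in brackets, and lists ordered by median interaction. In ribosome biogenesis and in RNA polymerases I and III every circle lies nearer to 0 than every square, and so it does in autophagy and in the general stress response, where WT culture 3 reaches 0.64. The same holds for glucan synthesis and remodelling, vacuolar hydrolases, the TCA cycle and respiration, mitochondrial ribosomal proteins and SAGA.

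Lists of other functions had medians close to that of all genes. In the TCA cycle and respiration 29 of 44 were negative with a median of -0.06, and *CYC7* alone passed, with a positive sign. *CIT1*, the mitochondrial citrate synthase gene, had -0.53 (adjusted p = 0.0716 from limma). In the meiosis and sporulation list the median was -0.07, which turned to 0.02 after quantile normalization and 0.14 without dim genes, and *SHU2* passed with a positive sign. The transporters of peptides and amino acids had a median of 0.02 with *DAL4* past the test, and the amino acid synthesis genes under Gcn4 a median of 0.05 with none past it, where *LYS20*, the homocitrate synthase gene, had 0.50 (adjusted p = 0.0532 from limma). Without WT culture 3 the medians of the transporter and Gcn4 lists were -0.08 and -0.02.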

How the data were processed

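The authors made the deposited log2 signals by RMA (background correction, quantile normalization and a summary over probes) in the Expression Console, whose version is not given in the sources here. Nor do they say which arrays entered the normalization together. These steps set the arrays to like distributions, yet the dim end still differed between strains.

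The platform annotation gave 5498 of 5739 probe sets to 1 gene, and 241 stayed unnamed. The brightest probe set stood for each gene and 49 further ones were left out, which left 5449 genes. No filter was applied. Names, positions, distances and lengths come from the R64 annotation.

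In R 4.3.3, limma 3.58.1 fitted a term for each of 6 cultures and a CR term for each strain to all 12 arrays (4 residual degrees of freedom, 4.32 added by moderation). The interaction was the *sus1*Δ minus the WT term. Tests were two-sided, with Benjamini-Hochberg adjustment over the whole table. The pairing of arrays comes from the study's methods, by which each culture was divided, and from the replicate numbers. Deviations from the group means correlated at 0.247 to 0.716 in the 6 pairs of 1 culture and at -0.595 to -0.00134 in 12 other pairs within strains. Since the deviations of a group sum to 0, the pairs within a strain are not independent of each other. Across strains the correlations were -0.0305 to 0.193 in pairs of the same replicate number and -0.149 to 0.16 in the others. The culture block lowered the median standard error to 0.111, against 0.149 without it. The 3 cultures per group limit the precision of every value.

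All genes past the test could be named, with every array for the 10 largest in each direction and for genes the study names, and, from each of 25 lists, the members past the test or the largest values. *BAG7*, *SDA1*, *CIT1* and the genes beside *PIR3* or just outside the threshold were named after their values were seen. The members, lists and rules were chosen with earlier results of these data known. List values are descriptions without a test. A search of promoters for sequence motifs was planned and not run, because no sequences were used here. The fit was also run on data simulated from its own means and variances with independent noise. That setting checks the code and does not bear on the calls in the real data. Alternatives changed the block, the scaling, the filter on dim genes, the probe sets, the variance model, the test and the threshold, or left out a culture.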

Additional observations from a re-analysis of the deposited data

Results flagged for a closer look

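The 45 genes were noted because the strains' responses to CR differed by the interaction test of limma. The values here are ratios of responses, the CR-treated over untreated ratio of *sus1*Δ cells divided by that of WT cells, so that a value of 1 would mean equal responses.

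Among genes of the wall the ratio was 0.236 for *PIR3*, 0.399 for *GSC2*, 0.498 for *YPS6* and 0.662 for *DFG5*. Among genes of kinases and phosphatases it was 0.509 for *KDX1*, 0.566 for *YPK2*, 0.596 for *SSK22*, 0.622 for *SKM1*, 0.637 for *INP52* and 0.658 for *RTS3*. Among genes of membranes, mating and sorting it was 0.368 for *RTA1*, 0.443 for *YNR065C*, 0.574 for *PRM10*, 0.524 for *AFB1*, 0.691 for *PIN2* and 0.708 for *EPO1*. Among genes of metabolism, transport and the vacuole it was 0.414 for *SHH3*, 0.428 for *CRG1*, 0.508 for *YPL088W*, 0.527 for *DAL4*, 0.548 for *AMS1*, 0.582 for *ADR1*, 0.597 for *PCA1*, 0.681 for *GSM1* and 0.688 for *CYB2*. For the other negative genes it was 0.488 for *YGL258W-A*, 0.609 for *DIA1*, 0.623 for *YIL108W*, 0.627 for *DBP1*, 0.647 for *RIM4*, 0.653 for *IML2*, 0.656 for *DAS1* and 0.678 for *MHO1*.

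Among the positive genes, those of RNA processing and assembly had ratios of 1.70 (*PXR1*), 1.52 (*LSM5*) and 1.44 (*SSF1*). *APE1* had 1.89, *CSN9* 1.69, *SHU2* 1.66, *YLR363W-A* 1.61, *ICY1* 1.5 and *CYC7* 1.46. *YAR068W* had 1.81, and *YBL100W-A* and *YBL111C*, whose probe sets are of the shared type, had 3.88 and 1.5. In *RIM4* and *DBP1* every culture of one strain moved opposite to every culture of the other.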

How the results depend on the processing

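Both counts depended on the fit, and the cause was not tested. With the main fit at 33 negative and 12 positive genes, no replicate block gave 4 and 0, a replicate block with the number shared across strains 6 and 3, and the culture as a random block 60 and 27. The same fits shared 4 and 0, 6 and 3, and 26 and 10 genes with the main one. Quantile normalization gave 15 negative genes, the filter on dim genes 77 and 45 (over 4134 genes tested), and variance moderation with trend and robust settings 91 and 60. The t-test on culture responses gave 0 and 0 with adjustment and 441 and 319 without it. Among the positive genes, 7 also had a ratio of responses over 1/0.65. This is the inverse of the limit that the methods set for reduced induction, and they give no upper limit. Without a culture the counts ranged over 0 to 58 negative and 0 to 17 positive genes, with 0 of both for each *sus1*Δ culture. Median centring, array weights, all named probe sets and the ratio limit for negative genes kept the negative count within 1.5 times.

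Of 26 genes followed under the alternatives, *PRM5* and *SUS1* alone changed sign. The interaction of *PRM5* ranged over -0.07 to 0.15 and that of *SUS1* over -0.02 to 0.33 when a culture was left out. Of the list medians under an alternative, 286 moved by less than the spread between cultures and 14 by more.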

Other observations

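Among lists not described above, genes of the complexes that contain Sus1 had small interactions. The 19 measured SAGA genes had a median of 0.07 and ran between -0.09 and 0.22, with *TRA1*, the largest subunit, at 0.22 (adjusted p = 0.391 from limma). The 18 genes of TREX-2 and mRNA export had a median of 0.04, with *HPR1*, of the THO complex, at -0.38 (adjusted p = 0.371 from limma). None of either list passed the test. All 8 core histone genes measured had a positive value (median 0.11, highest for *HTB2* at 0.21, adjusted p = 0.497 from limma), and none passed.

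Of 14 measured genes of calcineurin and calcium 9 were negative with a median of -0.11, and *CMP2*, a catalytic subunit of calcineurin, had -0.42 (adjusted p = 0.101 from limma) while *RCN2*, a regulator of calcineurin, had -0.49 (adjusted p = 0.263 from limma). Of 23 genes of phosphate and phospholipid turnover none passed (median 0.01, and -0.07 without WT culture 3), although *GDE1*, a glycerophosphocholine phosphodiesterase gene, had -0.69 (adjusted p = 0.085 from limma) and *YSR3*, a sphingolipid phosphatase gene, -0.66 (adjusted p = 0.0528 from limma). Of 33 proteasome genes 24 were negative with a median of -0.04, with *RPN4*, the activator of these genes, at -0.25 (adjusted p = 0.28 from limma). The 65 genes of mitochondrial ribosomal proteins had a median of 0.07 with 47 positive values. The 26 heat shock chaperones had a median of 0.10, which was 0.00 without WT culture 3, with *HSP26* lowest at -0.61 (adjusted p = 0.105 from limma). The 25 iron uptake genes had a median of -0.01, and *HMX1*, the heme oxygenase gene, had -0.63 (adjusted p = 0.17 from limma).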
